A study of Homo sapiens with 6 samples.

Results

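The genes that process microRNAs and carry out RNA silencing were followed in U2OS cells, a human osteosarcoma line, after depletion of E4F1, a zinc finger transcription factor. The 10 genes were taken by name, by a rule that uses no measured value but was written with earlier results of these data known: DROSHA, DGCR8, XPO5, DICER1, TARBP2, AGO1, AGO2, AGO3, AGO4 and TNRC6A. All 10 were found among the 58219 genes counted and all 10 were tested. The depleted cells carried a short hairpin RNA (shRNA) against E4F1 and the control cells a scramble shRNA, with 3 libraries in each group. Both groups were grown in serum-containing DMEM, infected for 24 h, kept for a further 48 h in puromycin and harvested at 72 h, so every library came from cells that expressed an shRNA and had been selected for it. The labels describe 3 independent pools and do not say how many hairpins against E4F1 were used. Uninfected cells were not analysed here.

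An shRNA uses the same machinery as an endogenous microRNA. DROSHA, a nuclear ribonuclease, and its partner DGCR8 form Microprocessor, which cuts hairpins out of primary transcripts. XPO5 carries the hairpins to the cytoplasm, and DICER1, helped by the double-stranded RNA binding protein TARBP2, cuts off the loop. One strand is then loaded into an Argonaute protein, AGO1 to AGO4, and TNRC6A links the Argonaute to the enzymes that shorten the poly(A) tail and remove the cap of the target. Transcripts from shRNA vectors driven by RNA polymerase III usually need no cut by DROSHA. The sources used here do not name the vector. The libraries held polyadenylated RNA, so they measured the mRNAs of this machinery and not the small RNAs that it makes.

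Libraries held 16159934 to 16892139 reads in genes in E4F1 shRNA cells, against 14947085 to 16284450 in control cells. E4F1 itself had 51, 53 and 41 reads in the E4F1 shRNA libraries and 233, 286 and 297 in the control libraries, −2.57 on the log2 scale with an SE of 0.14 (adjusted p = 7.65e-10 in edgeR). Control library 2 lay closer to the E4F1 shRNA libraries than the other controls did: on the first principal component the E4F1 shRNA libraries lay at 17.5 to 22.7, control library 2 at −9.85 and controls 1 and 3 at −20.9 and −31.1. A score made from genes of DNA replication and mitosis, in log2 units relative to the mean of the 6 libraries, lay at 0.17, 0.18 and 0.068 in the E4F1 shRNA libraries and at −0.18, 0.048 and −0.29 in control libraries 1, 2 and 3. Mesenchymal markers (VIM, FN1, SPARC, COL5A2 and CALD1) summed to 4421 to 4713 CPM, counts scaled to library size, in E4F1 shRNA libraries and 4858 to 4992 CPM in control libraries. The 5 epithelial markers summed to 18.6 to 21.8 CPM in E4F1 shRNA cells, against 22.3 to 26.7 CPM in controls. The 5 blood markers summed to 3.03 to 4.39 CPM in E4F1 shRNA cells and 2.27 to 6.54 CPM in controls, and the 5 endothelial markers to 1.77 to 2.26 CPM in E4F1 shRNA cells and 1.99 to 2.90 CPM in controls. The markers within a list did not all go with its sum. Against the lower sums, CALD1 and EPCAM were higher in all E4F1 shRNA libraries than in all controls. VIM, SPARC, CDH1 and CLDN4 were lower in all E4F1 shRNA libraries, and FN1 and COL5A2 overlapped between the groups. KRT19 and GRHL2 reached no more than 0.128 and 0.134 CPM in any library. CD3E was at 0 in all libraries. The part of the score, of control library 2 and of these markers in the results was not tested beyond the fits named beside them. In bulk RNA, fewer cells with a transcript and less of it per cell cannot be told apart.

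None of the 10 genes passed the test between E4F1 shRNA and control cells. Of the 15765 genes tested, 28.9% passed at an edgeR adjusted p of 0.05, with 14.4% higher and 14.4% lower in E4F1 shRNA cells. For 9 of the 10 genes, all but AGO4, the 95% interval of each fold change lay between 0.850-fold and 1.18-fold. AGO4 had the widest interval, 1.04-fold to 1.43-fold, and the lowest adjusted p, 0.0536 in edgeR. At an unadjusted p of 0.05 the count was 2, AGO4 and DICER1, in edgeR. It was also 2 in DESeq2 and in limma-voom, each of which called 0 after adjustment. By unadjusted edgeR p, AGO4 ranked 4661 and DICER1 5703 among the 15765 genes tested, so p-values this low were common over all genes. The count therefore does not set the 10 genes apart. AGO4 alone was called in 2 of 15 alternatives, when counts ignored strand (adjusted p = 0.0439) and when only library totals were used for scaling (adjusted p = 0.0499). No alternative called any of the other 9.

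**Figure D1:**
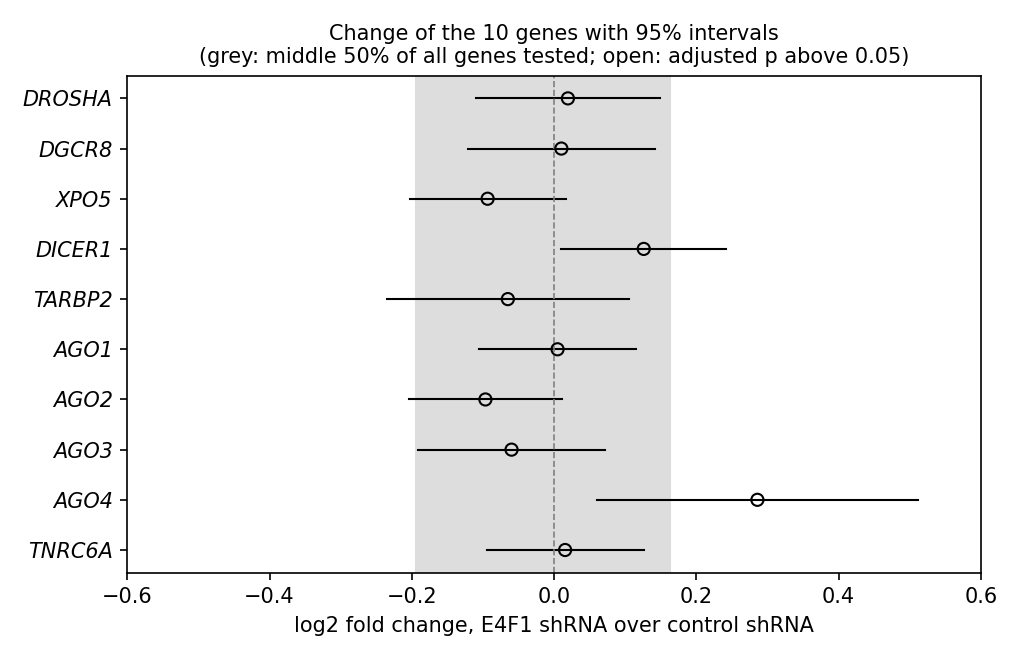
Log2 fold change of the 10 genes, E4F1 shRNA over control shRNA, with 95% intervals from the edgeR fit (3 libraries per group). The grey band is the middle 50% of all genes tested, −0.19 to 0.16, and the points of 9 genes lie inside it while that of AGO4, 0.29, lies outside.

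The median size of the log2 fold change was 0.062 over the 10 genes and 0.18 over all genes tested. Of the 10, 6 had a value above 0 and 4 below. The 3 E4F1 shRNA libraries lay apart from the 3 control libraries for 4 genes (40%), against 41.8% of all genes tested, a share near the background. Those 4 were DICER1 and AGO4, higher in E4F1 shRNA cells, and XPO5 and AGO2, lower in E4F1 shRNA cells.

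**Figure D2:**
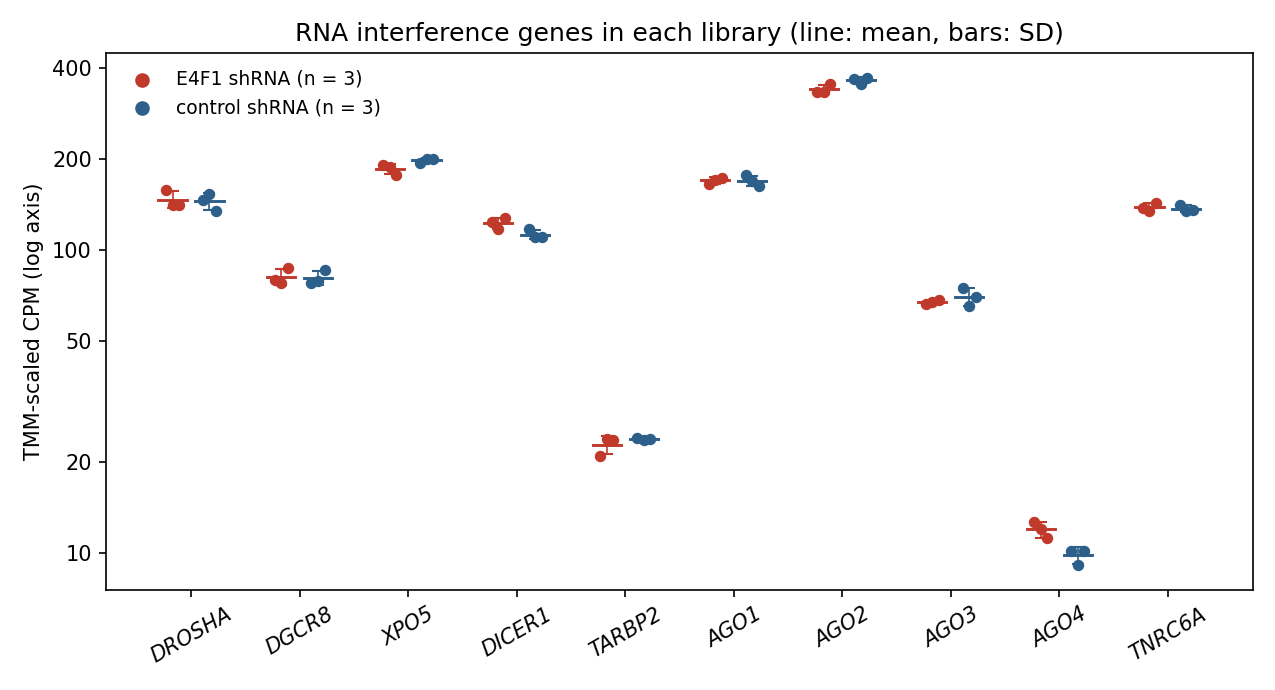
TMM-scaled CPM of the 10 genes on a log axis, 1 point per library, E4F1 shRNA left of control shRNA, with the mean and SD of 3 libraries. Groups lie side by side at each gene, from AGO4 near 10 CPM to AGO2 above 300 CPM.

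Per kilobase of merged exons, the means of the 10 mRNAs stood in the same order in both groups. XPO5 and AGO2 stood highest, with 21.8 ± 0.895 and 21.5 ± 0.750 CPM per kb in E4F1 shRNA cells and 23.3 ± 0.402 and 23.0 ± 0.535 CPM per kb in control cells (SD, n = 3). DROSHA followed with 18.9 ± 1.22 CPM per kb in E4F1 shRNA cells and 18.6 ± 1.18 in controls. AGO1, DGCR8, TNRC6A and DICER1 lay between 10.0 and 12.3 CPM per kb in E4F1 shRNA cells and between 9.16 and 12.2 in controls. TARBP2 had 5.55 ± 0.391 CPM per kb in E4F1 shRNA cells and 5.81 ± 0.0444 in controls, above AGO3 and AGO4. Neighbours whose libraries overlapped in both groups were XPO5 with AGO2 and DGCR8 with TNRC6A, and AGO1 with DGCR8 also overlapped in controls. Among the 13148 protein-coding genes tested, the levels ran from percentile 22.8 for AGO4 to percentile 84.2 for XPO5. With the longest annotated transcript as the length, chosen for this order after seeing the data, DROSHA stood above AGO2. DGCR8 and TNRC6A then stood above AGO1 in both groups, without overlap. TARBP2 stood above DICER1, with overlapping libraries in E4F1 shRNA cells, while AGO3 and AGO4 stayed lowest. With that length AGO1 stood above TARBP2 in E4F1 shRNA cells and below it in controls, with overlapping libraries in both groups, so the order was then not the same.

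DROSHA and DGCR8, the subunits of Microprocessor, overlapped between the groups. DROSHA (GRCh38 chromosome 5, 31400497 to 31532196, minus strand) had 158, 142 and 141 CPM in the E4F1 shRNA libraries and 147, 153 and 135 CPM in the control libraries. The highest was E4F1 shRNA library 1 and the lowest control library 3. The log2 fold change was 0.02 (SE 0.06), with a 95% interval of −0.11 to 0.15 and an adjusted p of 0.842 in edgeR, and it came to −0.12 with the replication and mitosis score as a covariate. DGCR8 (chromosome 22, 20080232 to 20111877, plus strand) had 80.0, 77.9 and 87.1 CPM in the E4F1 shRNA libraries and 78.0, 79.1 and 86.1 CPM in the control libraries. In both groups library 3 was the highest, and the ranges overlapped almost fully. Its log2 fold change was 0.01 (SE 0.06), with a 95% interval of −0.12 to 0.14 and an adjusted p of 0.922 in edgeR. The log2 ratio of DROSHA to DGCR8 per kb was 0.76 ± 0.14 in E4F1 shRNA cells and 0.75 ± 0.17 in control cells (SD, n = 3), with an exact two-sided permutation p = 1.

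The DGCR8 mRNA is itself a Microprocessor substrate, and the microRNA gene MIR3618 lies in it (chromosome 22, 20085746 to 20085833), in an exon outside the coding sequence. The mature microRNA from this hairpin is shown for that reason, with its seed (bases 2 to 8) in capitals, from the RefSeq table on GRCh38.p14.
hsa-miR-3618 (chr22:20085797-20085818, plus strand): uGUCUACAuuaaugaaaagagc
The gene entry of MIR3618 held 0 reads in all 6 libraries. So did that of MIR1306, another microRNA gene within DGCR8 (20086058 to 20086142, plus strand), whose mature sequence was not available here. STAR's gene counting sets aside reads that touch exons of more than 1 gene, so cutting of hairpins in the DGCR8 transcript was not measured.

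XPO5, the exporter of hairpin precursors (chromosome 6, 43522330 to 43576075, minus strand), had 191, 189 and 177 CPM in the E4F1 shRNA libraries and 194, 200.3 and 200.1 CPM in the control libraries. All E4F1 shRNA libraries lay below all controls, by little. The log2 fold change was −0.09 (SE 0.05), with a 95% interval of −0.20 to 0.02 and an adjusted p of 0.194 in edgeR, and it did not pass. Part of the gene overlaps POLR1C on the opposite strand, whose reads the strand-specific counts kept apart.

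DICER1, the ribonuclease that trims the loop (chromosome 14, 95086228 to 95158010, minus strand), had 124, 117 and 128 CPM in the E4F1 shRNA libraries and 117, 110.3 and 110.5 CPM in the control libraries. Every E4F1 shRNA library lay above every control, though E4F1 shRNA library 2 and control library 1 were nearly level. The log2 fold change was 0.13 (SE 0.06, 95% interval 0.01 to 0.24), a mean difference of 9.13%, and it did not pass over all genes (edgeR adjusted p = 0.0960, and 0.0732 to 0.254 over 15 alternatives). TARBP2, its partner (chromosome 12, 53500921 to 53506431, plus strand), had 20.9, 23.7 and 23.6 CPM in the E4F1 shRNA libraries and 24.0, 23.6 and 23.7 CPM in the control libraries. E4F1 shRNA library 1 was below the rest and the other 5 were nearly level. Its log2 fold change was −0.07 (SE 0.08), with a 95% interval of −0.24 to 0.11 and an adjusted p of 0.586 in edgeR, and it came to 0.00058 without that library.

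DICER1 was the only one of the 10 genes with the heptamer CTTATCT in its longest annotated 3′ untranslated region. Earlier results of these data had pointed to this heptamer. Of the 13063 tested genes with such a region, 11.8% held it, so a single match among the 10 genes was near the background. The match in DICER1 starts at base 221 of 4270 and is shown because it is the single one among the 10 genes, with the heptamer in capitals and the sense strand as in GENCODE 29.
DICER1: aacacaatCTTATCTtctttcct
Whether this stretch bears on the DICER1 level was not tested.

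Argonaute proteins hold the guide strand, and AGO2 is the one best known for cutting a fully paired target, as an shRNA is designed to do. The AGO4, AGO1 and AGO3 genes lie next to one another on the plus strand of chromosome 1, at 35808172 to 35857890, 35869808 to 35930528 and 35930718 to 36072500. AGO2 lies apart from them, on the minus strand of chromosome 8 at 140520156 to 140635619. AGO2 had 334.3, 333.4 and 354.4 CPM in the E4F1 shRNA libraries and 368.7, 354.5 and 369.7 CPM in the control libraries. The groups did not overlap, but E4F1 shRNA library 3 and control library 2 were level to within 1 CPM. The log2 fold change was −0.10 (SE 0.05), with a 95% interval of −0.20 to 0.01 and an adjusted p of 0.171 in edgeR, and it did not pass.

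AGO4, the least abundant, had 12.6, 11.9 and 11.2 CPM in the E4F1 shRNA libraries, from 203, 201 and 184 reads, and 10.2, 9.08 and 10.1 CPM in the control libraries, from 152, 147 and 158 reads. All E4F1 shRNA libraries lay above all controls. The log2 fold change was 0.29 (SE 0.11, 95% interval 0.06 to 0.51), a difference of 21.9%. With edgeR adjusted p = 0.0536, and 0.0439 to 0.258 over 15 alternatives, it stood at the threshold. AGO1 had 165, 171 and 174 CPM in the E4F1 shRNA libraries and 177, 169 and 163 CPM in the control libraries. Its groups overlapped fully, with a log2 fold change of 0.0049 (SE 0.05, 95% interval −0.11 to 0.12, edgeR adjusted p = 0.957). AGO3 had 66.4, 67.3 and 68.3 CPM in the E4F1 shRNA libraries and 75.1, 65.5 and 70.0 CPM in the control libraries, which overlapped, and differed by −0.06 on the log2 scale (SE 0.06, 95% interval −0.19 to 0.07, edgeR adjusted p = 0.509). The 3 neighbouring genes therefore stood at 0.29, 0.0049 and −0.06 on the log2 scale in their order along the chromosome.

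The mix of Argonaute mRNAs was compared as the share of each gene in the AGO1 to AGO4 total per kilobase. AGO2 made up 55.7%, 55.1% and 56.4% in the E4F1 shRNA libraries and 56.9%, 57.6% and 58.6% in the control libraries. AGO4 made up 4.59%, 4.30% and 3.89% in the E4F1 shRNA libraries and 3.41%, 3.21% and 3.50% in the control libraries. The groups did not overlap in either share, nor in that of AGO1, at 31.4%, 32.3% and 31.6% in the E4F1 shRNA libraries and 31.1%, 31.3% and 29.5% in the control libraries. Each of these 3 differences had an exact two-sided permutation p = 0.1, the smallest that 3 libraries against 3 allow, so none could pass 0.05. AGO3 made up 8.28%, 8.33% and 8.13% in the E4F1 shRNA libraries and 8.67%, 7.96% and 8.31% in the control libraries (exact permutation p = 0.8). The 4 shares add to a fixed total and are not independent of one another. The summed Argonaute level was 38.6 ± 0.947 CPM per kb in E4F1 shRNA cells and 39.9 ± 1.03 CPM per kb in control cells (SD, n = 3; exact permutation p = 0.2).

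**Figure D3:**
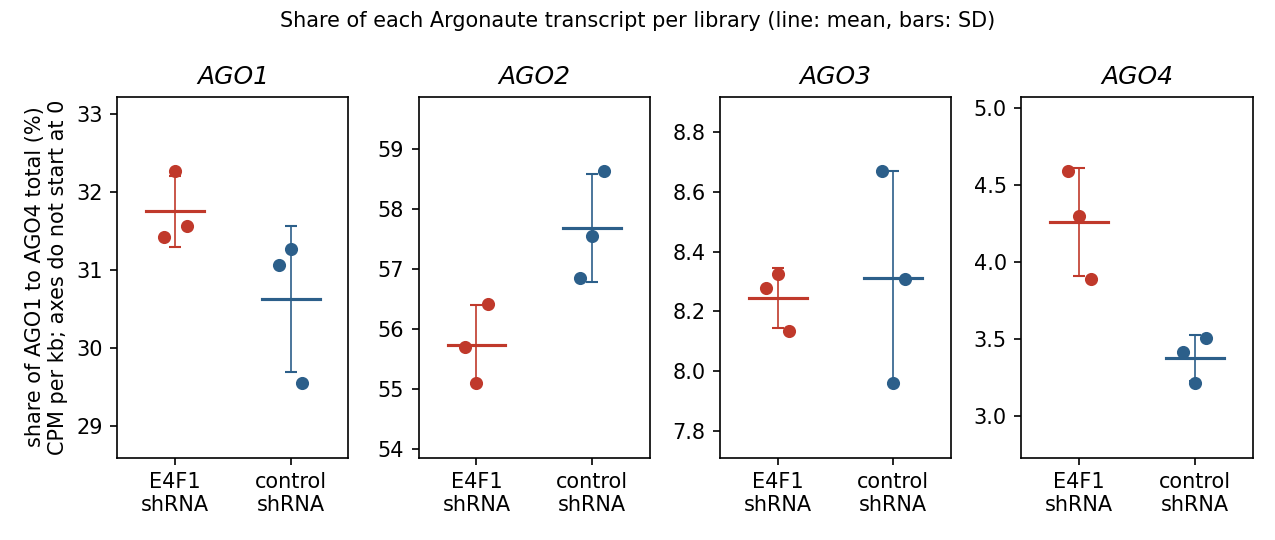
Percent share of AGO1, AGO2, AGO3 and AGO4 in their summed level (CPM per kb) in each library, with the mean and SD of 3 libraries, and with a separate vertical axis for each gene that does not start at 0. AGO2 is lower and AGO4 and AGO1 are higher in all 3 E4F1 shRNA libraries than in all 3 control libraries, and AGO3 overlaps.

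TNRC6A, the scaffold between Argonaute and the deadenylases (chromosome 16, 24610209 to 24827632, plus strand), had 137, 135 and 144 CPM in the E4F1 shRNA libraries and 141, 134 and 136 CPM in the control libraries. The groups overlapped, with a log2 fold change of 0.02 (SE 0.05, 95% interval −0.09 to 0.13, edgeR adjusted p = 0.853). Its paralogues TNRC6B and TNRC6C were on the list of silencing effectors. TNRC6B, named after its values were seen, had 131 ± 4.65 CPM in E4F1 shRNA cells and 129 ± 9.34 CPM in control cells (SD, n = 3; edgeR adjusted p = 0.834). TNRC6C, the fifth by p-value among those that fell and also named after its values were seen, fell to 10.9, 10.0 and 9.20 CPM in the E4F1 shRNA libraries, against 15.2, 14.7 and 14.2 CPM in the control libraries (log2 fold change −0.55, edgeR adjusted p = 0.000757). Its groups did not overlap. The difference between the changes of TNRC6C and TNRC6A was not tested.

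Proteins that assist hairpin processing, export and tailing made up a list of 25, of which 24 were tested. Of these, 8 rose and 0 fell, with a median log2 fold change of 0.12, against −0.01 over all genes. In either direction 33.3% were called, against 28.9% of all genes and 32.2% of protein-coding genes. Rises made up 33.3% of the list, against 14.4% of all genes and 16.6% of protein-coding genes. Falls made up 0% of the list, against 14.4% and 15.6%. The list as a whole was not tested. RAN, the GTPase that loads the export receptors XPO5 and XPO1, rose to 725 ± 33.5 CPM in E4F1 shRNA cells, against 581 ± 17.8 CPM in control cells (SD, n = 3; log2 fold change 0.32, edgeR adjusted p = 0.000277). ADAR, which edits adenosines in double-stranded RNA, rose to 367, 373 and 366 CPM in the E4F1 shRNA libraries, against 298, 310 and 290 CPM in the control libraries (log2 fold change 0.30). LIN28B, which binds let-7 precursors, rose to 50.3, 46.2 and 45.4 CPM in the E4F1 shRNA libraries, against 39.8, 38.8 and 38.4 CPM in the control libraries (log2 fold change 0.28, edgeR adjusted p = 0.00465). TUT4, the uridyltransferase that LIN28 proteins recruit to let-7 precursors, also rose (log2 fold change 0.23, edgeR adjusted p = 0.00625), and the groups did not overlap for any of these 4 genes. Without control library 2 the list held 12 rises and 0 falls, when 5370 of all 16092 genes tested were called. It held 4 calls without E4F1 shRNA library 1, E4F1 shRNA library 2, control library 1 or control library 3. Over all genes, those fits called 3031 to 3509. With the replication and mitosis score as a covariate the list held 0 calls, when 974 of all 15765 genes tested were called. All 3 E4F1 shRNA libraries scored above all 3 controls, so the score and the E4F1 hairpin cannot be told apart in this design. RAN has processed pseudogenes, so its counts of uniquely mapped reads are uncertain to that extent.

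Chaperones and other proteins that load, carry or turn over Argonautes made up a list of 19, of which 18 were tested. Of these, 3 rose and 4 fell (38.9% called, against 28.9% of all genes and 32.2% of protein-coding genes), with a median log2 fold change of 0.05. ZSWIM8, the substrate receptor of the ubiquitin ligase that removes Argonaute during target-directed microRNA decay, fell to a mean of 36.1 CPM in E4F1 shRNA cells, against 51.8 CPM in control cells (n = 3; log2 fold change −0.52, SE 0.07; edgeR adjusted p = 1.88e-05). IPO8, an importin that binds Argonaute, fell to 81.7, 81.4 and 75.6 CPM in the E4F1 shRNA libraries, against 100.5, 107.2 and 96.2 CPM in the control libraries (log2 fold change −0.35). Neither gene's groups overlapped. CDC37, a cochaperone of HSP90, and SND1, a nuclease found with silencing complexes, fell by 0.24 and 0.20 on the log2 scale. FMR1, an RNA-binding translational regulator, rose to 69.0 ± 3.59 CPM in E4F1 shRNA cells, against 56.2 ± 3.55 CPM in control cells (SD, n = 3; log2 fold change 0.30), and the HSP40 genes DNAJB1 and DNAJA2 rose by 0.21 and 0.17 on the log2 scale.

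Enzymes downstream of the Argonaute made up a list of 34, all tested. Of these, 4 rose and 7 fell (32.4% called, against 28.9% of all genes and 32.2% of protein-coding genes, a share near the background), with a median log2 fold change of 0.04. Subunits of the CCR4-NOT deadenylase went both ways. CNOT11 fell to 58.4, 54.9 and 53.1 CPM in the E4F1 shRNA libraries, against 79.0, 81.2 and 80.3 CPM in the control libraries (log2 fold change −0.53, edgeR adjusted p = 5.85e-06), and the catalytic subunit CNOT6 fell by 0.32. CNOT6L, the paralogue of CNOT6, rose by 0.38 on the log2 scale, with 42.2, 38.4 and 47.0 CPM in the E4F1 shRNA libraries against 34.8, 30.6 and 32.6 CPM in the control libraries (edgeR adjusted p = 0.00199). CNOT8 and CNOT10 rose by 0.30 and 0.22, and TOB2, an adaptor of the same deadenylase, by 0.19 on the log2 scale, with overlapping groups for TOB2. LIMD1 and WTIP, of the LIM-domain family reported to bind silencing complexes, fell by 0.47 and 0.51 on the log2 scale. AJUBA, of the same family and named after its values were seen, did not pass, with a log2 fold change of 0.17 (95% interval 0.04 to 0.31, edgeR adjusted p = 0.0553). With the replication and mitosis score as a covariate 1 rise and 3 falls were called in this list, and 0 rises and 2 falls in the list of loading and turnover. That fit called 974 of all 15765 genes tested. Without control library 2 the lists held 7 rises and 7 falls, and 5 rises and 4 falls, in the same order. In that fit 5370 of all 16092 genes tested were called. With each library left out in turn, the silencing effectors held 8 to 14 calls, and the list of loading and turnover 5 to 9. The PIWI genes, the germline branch of the Argonaute family, were low. PIWIL1, PIWIL3 and PIWIL4 had at most 8 reads in any library and were not tested, and PIWIL2 had at most 20 reads (edgeR adjusted p = 0.472).

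**Figure D4:**
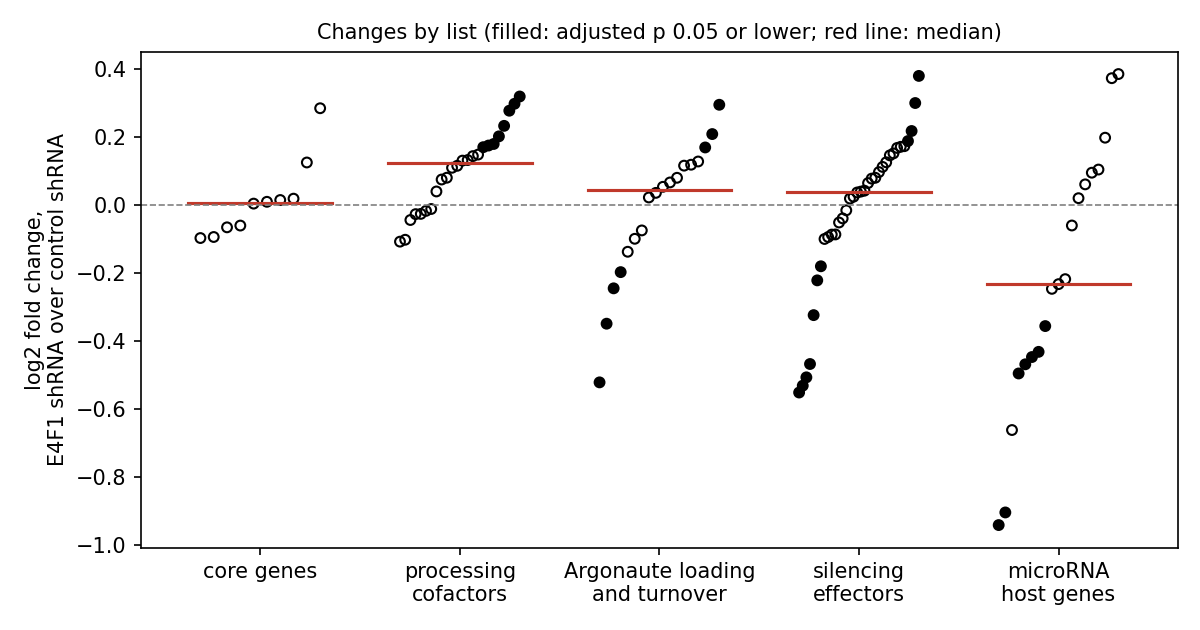
Log2 fold change (E4F1 shRNA over control shRNA) of each tested gene in 5 lists, sorted within each list, with filled points for adjusted p of 0.05 or lower and a red line for the median. The 10 core genes are all open points. Filled are 8 of 24 processing cofactors (33.3%) and 7 of 18 genes of loading and turnover (38.9%). Filled too are 11 of 34 silencing effectors (32.4%) and 7 of 19 host genes (36.8%). Over all genes tested 28.9% were called.

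Host genes of microRNAs, whose transcripts carry the hairpins that DROSHA cuts, were taken as all genes with a symbol of the form MIR-HG. Of 62 such genes 19 had enough reads to be tested and 43 did not. Of the 19, 7 fell (36.8%, against 14.4% of all genes and 8.79% of the genes tested that are not protein-coding) and 0 rose, with a median log2 fold change of −0.23. MIR100HG, host of miR-100, let-7a-2 and miR-125b-1 on chromosome 11, fell to 9.47, 8.79 and 9.08 CPM in the E4F1 shRNA libraries, against 18.4, 14.0 and 18.9 CPM in the control libraries. The log2 fold change of MIR100HG was −0.90 with an SE of 0.12 (adjusted p = 3.28e-05 in edgeR), and control library 2 lay lowest of the controls. MIR222HG, host of miR-221 and miR-222 on chromosome X, fell to 20.6, 18.2 and 21.1 CPM in the E4F1 shRNA libraries, against 29.3, 24.0 and 31.2 CPM in the control libraries (log2 fold change −0.50). MIR34AHG, host of the p53-activated miR-34a, fell to 17.4, 16.0 and 20.2 CPM in the E4F1 shRNA libraries, against 23.6, 21.2 and 28.2 CPM in the control libraries (log2 fold change −0.45). In both genes the groups did not overlap, and control library 2 was again the lowest control. MIR4435-2HG fell by 0.36 on the log2 scale, and it has a close copy elsewhere in the genome, so its count is uncertain.

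The other 3 that fell, MIR22HG, MIR9-3HG and MIR17HG, are named after their values were seen. MIR22HG had 22.5, 19.6 and 21.7 CPM in the E4F1 shRNA libraries and 30.7, 22.5 and 33.0 CPM in the control libraries (log2 fold change −0.43, edgeR adjusted p = 0.00872), and its groups overlapped at control library 2. MIR9-3HG and MIR17HG were low, with 1.06 ± 0.300 and 3.51 ± 0.421 CPM in E4F1 shRNA cells and 2.04 ± 0.342 and 4.87 ± 0.471 CPM in control cells (SD, n = 3). Without control library 2 the list held 8 falls and 0 rises among 20 tested, against 2537 falls among all 16092 genes tested. It held 4 calls, all falls, without E4F1 shRNA library 2 or control library 1. Over all genes those fits called 1426 and 1619 falls. With the replication and mitosis score as a covariate 2 falls were called among 19 host genes, against 398 among all 15765 genes tested. The levels of the mature microRNAs were not measured.

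Some mature products of 5 of the host genes that fell are shown to place them by seed, with bases 2 to 8 in capitals. The sequences come from the RefSeq table on GRCh38.p14. MIR17HG also holds miR-18a, miR-19a, miR-19b-1 and miR-92a-1, and MIR100HG holds miR-10526. These further microRNAs are not shown, and sites for their seeds were not looked for. Among those shown, miR-221 and miR-222 share 1 seed, and miR-17 and miR-20a another. MicroRNAs of other genes that share a seed but differ in the rest of the sequence were not looked for.
hsa-miR-100-5p (MIR100HG, chr11:122152275-122152296, minus strand): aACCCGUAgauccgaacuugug
hsa-let-7a-5p (MIR100HG, chr11:122146568-122146589, minus strand): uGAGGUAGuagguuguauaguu
hsa-miR-125b-5p (MIR100HG, chr11:122099809-122099830, minus strand): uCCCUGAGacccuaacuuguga
hsa-miR-221-3p (MIR222HG, chrX:45746180-45746202, minus strand): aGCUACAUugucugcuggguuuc
hsa-miR-222-3p (MIR222HG, chrX:45747036-45747056, minus strand): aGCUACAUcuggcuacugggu
hsa-miR-34a-5p (MIR34AHG, chr1:9151735-9151756, minus strand): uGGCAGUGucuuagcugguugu
hsa-miR-9-5p (MIR9-3HG, chr15:89368032-89368054, plus strand): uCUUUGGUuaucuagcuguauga
hsa-miR-17-5p (MIR17HG, chr13:91350618-91350640, plus strand): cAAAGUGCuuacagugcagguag
hsa-miR-20a-5p (MIR17HG, chr13:91351072-91351094, plus strand): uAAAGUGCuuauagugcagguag
The hairpins of miR-100, let-7a-2, miR-125b-1, miR-221, miR-222 and miR-9-3 lie in introns of every annotated transcript of their hosts, and those of miR-34a, miR-17 and miR-20a in an exon of at least 1 transcript. The sequences of let-7a-5p, miR-125b-5p and miR-9-5p are also made from other loci, 2, 1 and 2 in the same table.

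**Figure D5:**
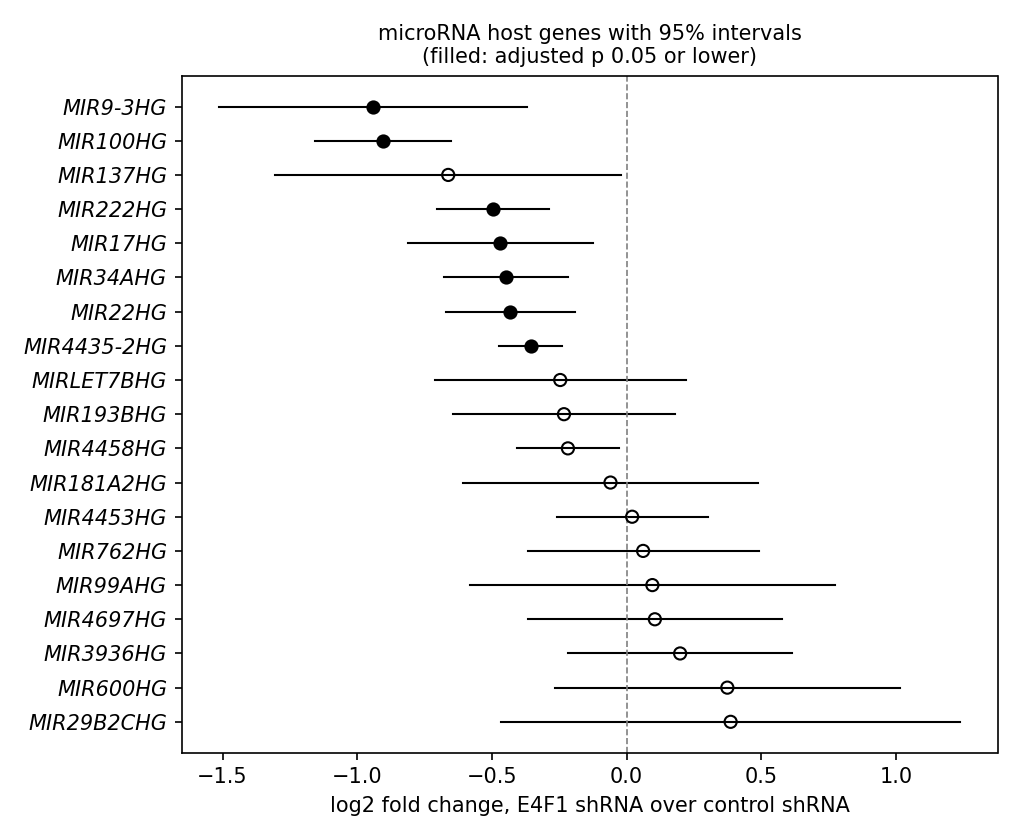
Log2 fold change of the 19 microRNA host genes tested, E4F1 shRNA over control shRNA, with 95% intervals from the edgeR fit (3 libraries per group). The 7 filled points, those called, all lie below 0, from −0.94 for MIR9-3HG to −0.36 for MIR4435-2HG.

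Sites complementary to the seeds of these microRNAs were looked for in the longest annotated 3′ untranslated region of each of the 10 genes, on the sense strand only. The let-7 heptamer CTACCTC stood in 4 of them (TARBP2, AGO1, AGO2 and AGO3), against 11.3% of all 13063 regions. The miR-221 and miR-222 heptamer ATGTAGC stood in 3 (DICER1, AGO2 and AGO4), against 9.74% of all regions. The miR-34a heptamer CACTGCC stood in 4 (XPO5, AGO2, AGO3 and AGO4), against 18.2%, and the miR-17 heptamer GCACTTT in 5 (AGO1, AGO2, AGO3, AGO4 and TNRC6A), against 25.7%. The miR-125b heptamer CTCAGGG stood in 3 (DICER1, AGO1 and AGO2), against 16.7%, and the miR-100 heptamer TACGGGT in AGO2 alone, against 1.26%. The miR-9 heptamer ACCAAAG stood in 5 (DGCR8, DICER1, AGO1, AGO3 and TNRC6A), against 14.9%. The regions of AGO1, AGO2 and AGO3 are long, 10921, 11888 and 16755 bases, and longer regions hold more heptamers of any kind. DROSHA, with a region of 935 bases, held none of these 7 heptamers.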

How the data were processed

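RNA was sequenced from 6 libraries of U2OS cells. The authors deposited raw counts per gene and strand, laid out as STAR writes them. bcl2fastq 2.20, STAR 2.5.1b and GRCh38 are named, per the submitters' processing notes, and the sources used here name no annotation release. The reverse-strand counts were used, and the forward-strand column held 885046 to 977742 reads. Lines that name no gene took 27.1% to 31.7% of the reads and were left out. Names came from GENCODE 29, matched without version for 57881 of 58219 identifiers.

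All genes were tested with edgeR 4.0.16 in R 4.3.3 (filterByExpr, TMM, quasi-likelihood F-test, group as the only term, two-sided, Benjamini-Hochberg over 15765 genes, threshold 0.05). CPM are TMM-scaled, and 95% intervals come from the fit without adjustment for the number of genes. Alternatives used DESeq2 1.42.0, limma 3.58.1, other scalings, filters and counts, a replicate block, the replication and mitosis score (42 genes), and 1 library left out at a time. P-values of the fits set the difference between groups against the spread between pools. Exact permutation p-values set it against regroupings of the 6 libraries. The procedure was tested on simulated data. Other genes were named as the 4 with the smallest adjusted p per list and direction. The 10 genes and the lists were chosen with earlier results of these data known.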

Additional observations from a re-analysis of the deposited data

How the results depend on the processing

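None of the 10 genes was called in 13 of the 15 alternatives, and 1 (AGO4, log2 fold change 0.30 and 0.29) was called with counts that ignored strand and with library totals only. Some uncalled values changed sign, and the cause was not tested. With the replication and mitosis score as a covariate DROSHA came to −0.12, AGO1 to −0.0018 and AGO3 to 0.040 on the log2 scale. With single libraries left out, DROSHA ran over −0.030 to 0.070, DGCR8 over −0.033 to 0.055, TARBP2 over −0.093 to 0.00058, AGO1 over −0.022 to 0.047, AGO3 over −0.098 to 0.0036 and TNRC6A over −0.0050 to 0.048. DICER1, XPO5, AGO2 and AGO4 kept their signs in all 15. The 4550 genes called came to 974 with that covariate and to 3031 (without E4F1 shRNA library 2) to 5370 with single libraries left out. Calls with the covariate numbered 0 for processing cofactors, 2 for loading and turnover, 4 for silencing effectors and 2 for host genes, against 8, 7, 11 and 7. With single libraries left out, processing cofactors held 4 to 12 calls (4 without E4F1 shRNA library 1 or 2 or control library 1 or 3) and host genes 4 to 8 (4 without E4F1 shRNA library 2 or control library 1). In the same fits silencing effectors held 8 to 14 calls and loading and turnover 5 to 9. Over 9 alternatives the difference in the AGO1 share ran over 0.589 to 1.45 percentage points, lowest without control library 3, AGO2 over −2.36 to −1.47, AGO4 over 0.717 to 1.07 and AGO3 over −0.244 to 0.112. The summed level ran over −1.66 to −0.423 CPM per kb (highest without control library 1) and the log2 ratio of DROSHA to DGCR8 over −0.085 to 0.084. Each moved by less than the larger of its 2 group SDs. Pools with the same number did not deviate together (r = 0.0070, 0.047 and 0.048), and the replicate block gave 4865 calls and 0 among the 10 genes, with AGO4 at 0.29 (adjusted p = 0.0539). Depth limits AGO4 most, at 147 to 203 reads per library.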
